A study of Homo sapiens with 6 samples.

Results

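The replication fork and mismatch repair genes are 37 genes of the 61806 in the table, taken by symbol from a fixed list, and each symbol matched 1 row. They encode the sliding clamp and its loader, the 3 replicative DNA polymerases, replication protein A, the enzymes that finish Okazaki fragments, mismatch repair proteins, chromatin assembly factor 1 and proteins that steady the fork. RNA-seq was performed on HCT116, a human colorectal carcinoma line known for mismatch repair deficiency and microsatellite instability. The 3 control libraries are of wildtype cells that received si-NC, the control short interfering RNA, and the 3 others are of knockdown cells that received si-STRIP2. STRIP2 encodes a member of STRIPAK, an assembly of phosphatases and kinases. Both groups are the same line grown in McCoy's 5A medium with fetal bovine serum and antibiotics. The labels give no time after transfection, dose or short interfering RNA sequence, nor do they state if replicates are separate cultures, so p-values measure the spread between these libraries, which may be technical.

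At a replication fork, the helicase separates the strands, replication protein A coats the exposed single strand, and polymerase alpha-primase lays down short primers. The clamp loader RFC then places the ring-shaped clamp PCNA around the DNA, polymerase epsilon extends the leading strand, and polymerase delta extends the lagging strand in Okazaki fragments that FEN1, DNA2, ribonuclease H2 and LIG1 trim and join. Mismatch repair follows the fork, where MutS proteins such as MSH6 and MSH3 recognise mispaired bases and short loops and the exonuclease EXO1 removes the faulty strand. Many of these genes are transcribed in late G1 and S phase under E2F factors.

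Promoter sequences of these genes were searched for short motifs, and none of the motifs was found in all of the genes. RefSeq (GRCh38.p14) windows from 250 bases before to 50 bases after a gene start matched 33 of the 37 genes by symbol, with some genes having several starts. An E2F word, any of TTTCCCGC, TTTCGCGC, TTTGCCGC and TTTGGCGC on either strand, was present in at least 1 window of 14 of these 33 genes (42.4%), against 733 of the 11074 tested genes with a window (6.62%). Counted over windows, the words were in 15 of 46 member windows (32.6%), in 4.86% of the 16074 windows of tested genes and in 3.31% of all 35116 windows. The CCAAT box bound by NF-Y was in windows of 18 genes (54.5%) against 43.1% of tested genes, and TTTGAA, the core of the cell cycle homology region of mitotic genes, was in 1 member window (2.17%) against 10.4% of windows of tested genes and 15.2% of all windows. The 150 bases before a RefSeq start are shown for 4 of the genes that rose and hold an E2F word there (PCNA, LIG1, POLE and POLA1). They are also shown for TIPIN, which holds such words and was not called. These are examples, since POLA2 and RFC3, among others, also rose with such a word. Genes that rose without a word are not shown. Capitals mark the E2F words, and sequences run 5′ to 3′ on the strand of the gene.
PCNA, chr20:5126623-5126772, minus strand: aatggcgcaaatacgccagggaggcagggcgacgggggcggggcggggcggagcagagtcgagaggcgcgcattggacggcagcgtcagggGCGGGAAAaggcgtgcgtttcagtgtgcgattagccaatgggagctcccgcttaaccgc
LIG1, chr19:48170345-48170494, minus strand: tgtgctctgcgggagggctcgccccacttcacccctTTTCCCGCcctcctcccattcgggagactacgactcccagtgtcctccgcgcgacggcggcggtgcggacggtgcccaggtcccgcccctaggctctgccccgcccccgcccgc
POLE, chr12:132687343-132687492, minus strand: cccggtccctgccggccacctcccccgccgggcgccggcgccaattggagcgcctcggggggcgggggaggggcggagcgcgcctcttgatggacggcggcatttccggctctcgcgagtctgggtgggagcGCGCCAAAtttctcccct
POLA1, chrX:24693768-24693917, plus strand: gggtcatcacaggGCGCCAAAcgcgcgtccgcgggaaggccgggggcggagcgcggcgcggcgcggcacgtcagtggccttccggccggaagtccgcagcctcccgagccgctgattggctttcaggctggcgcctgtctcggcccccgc
TIPIN, chr15:66356686-66356835, minus strand: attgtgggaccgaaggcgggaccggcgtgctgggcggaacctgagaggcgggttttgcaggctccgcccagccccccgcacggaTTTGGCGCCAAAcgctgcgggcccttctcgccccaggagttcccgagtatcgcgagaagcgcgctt

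Counted from the RefSeq start, the word began at position -59 in PCNA, -114 in LIG1, -18 in POLE and -137 in POLA1. The deposited coordinates of the counted genes differ from these starts. The printed bases of LIG1 and TIPIN lie inside the deposited genes (chr19:48115445-48170603 and chr15:66336191-66386746). Those of PCNA, POLE and POLA1 overlap the deposited genes in part. PCNA has 2 RefSeq starts, and the window of the other holds no such word. In the window of 1 of the 2 RefSeq starts of TIPIN, a pair of overlapping words on opposite strands began at -66 and -62. These matches are a description of the letters and not of factor binding.

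Total counts were 17184963 to 21721218 in the si-NC libraries and 17222737 to 18778970 in the si-STRIP2 libraries. STRIP2 itself was at 3.19, 3.77 and 3.81 FPKM in the si-NC libraries and 2.71, 2.53 and 2.58 FPKM in the si-STRIP2 libraries, a mean of 72.6% of the control (log2 fold change -0.46 with standard error 0.083, adjusted p = 1.62e-05 by edgeR). Of 7 markers of colorectal epithelium, 6 were above 1 FPKM in every library and VIL1 was at or near 0, and their summed level was 691 to 721 FPKM in si-NC and 667 to 691 in si-STRIP2. Within that sum CDH1 was at 35.1 to 38.0 FPKM in si-NC and 24.0 to 24.6 in si-STRIP2 and KRT19 at 135 to 143 and 160.0 to 169, with no overlap between groups, and the part of this in the results was not tested. The 15 markers of fibroblasts, leukocytes and endothelium were each under 0.4 FPKM in every library except COL1A1, which reached 2.55. Mitochondrial genes took 4.88% to 8.88% of counts in si-NC and 5.73% to 6.30% in si-STRIP2, and the part of this spread in the results was not tested.

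Most of the fork genes were higher in si-STRIP2 cells. Of the 37, all of which passed the filter on low counts, 26 rose, 2 fell and 9 were not called at an adjusted p under 0.05 by the quasi-likelihood test of edgeR. Across all 15687 tested genes 54.8% were called, 27.8% higher and 27.0% lower. The median log2 fold change of the 37 was 0.29, where that of all tested genes was 0.014, and the range ran from -0.30 for POLD4 to 0.90 for LIG1. A rise of at least 1.5-fold was called for 11 members, LIG1, RNASEH2C, PRIM2, POLA2, CHAF1A, FEN1, POLE, MSH6, POLD1, RPA1 and POLA1, against 6.35% of tested genes. On the FPKM scale the 2 groups were fully apart for 32 members, 29 of them higher, against 58.6% of tested genes, and 30.0% in the higher direction. Together the 37 genes took 0.240% ± 0.00508 of all counts in control cells, against 0.304% ± 0.00150 after si-STRIP2 (SD, n = 3). In these bulk libraries, more cells in S phase and more transcript per cell cannot be told apart. Of the 14 genes with an E2F word in a window, 9 were called higher in si-STRIP2 cells, 1 lower and 4 were not called (median log2 fold change 0.27), and of the 19 without one these were 14, 1 and 4 (median 0.22). Among all tested genes with a window, 37.7% of those with a word and 29.1% of those without were called higher.

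**Figure D1:**
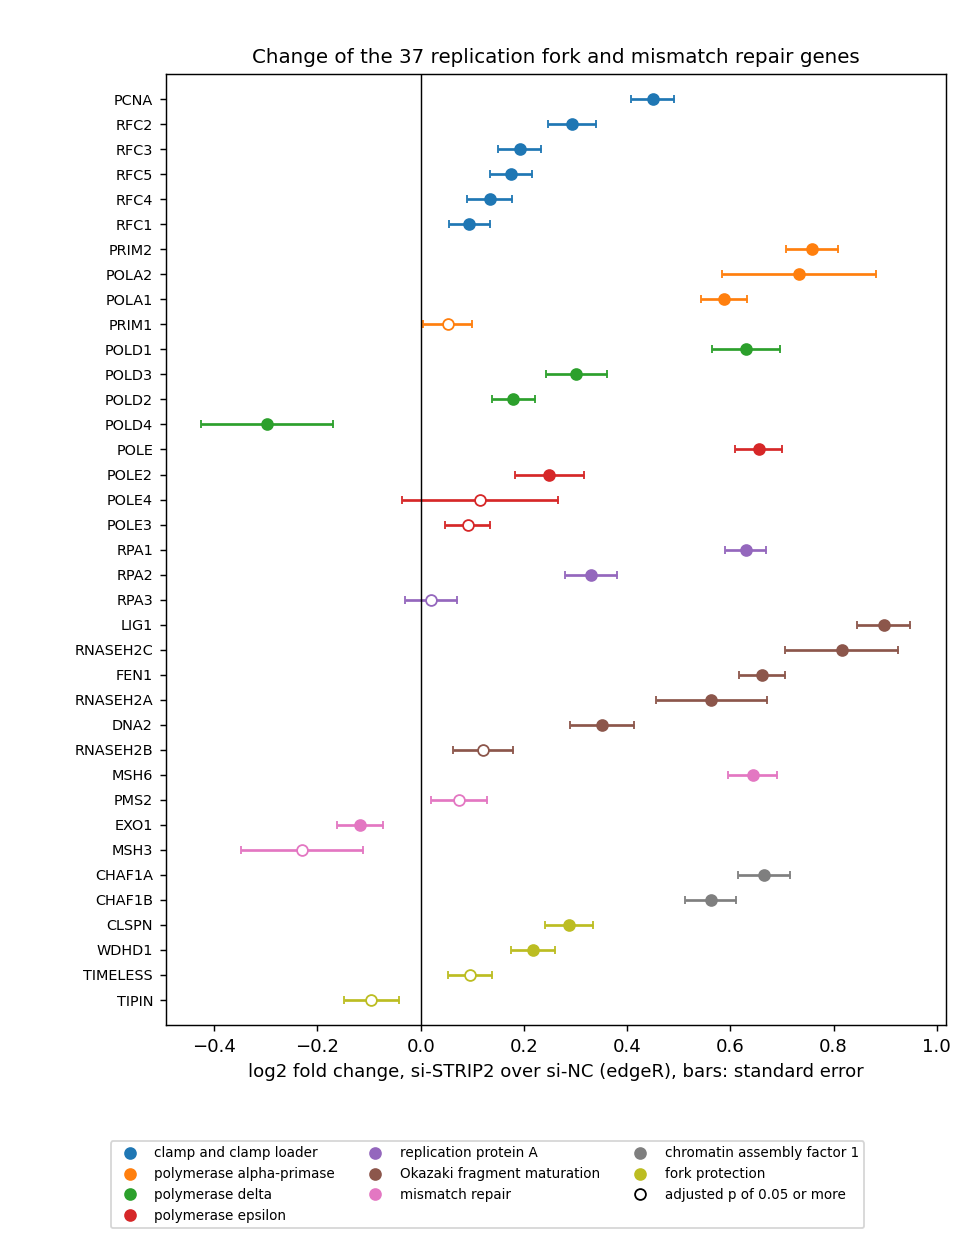
Log2 fold change of each of the 37 genes in si-STRIP2 over si-NC cells (x axis, edgeR), with bars for the standard error, genes on the y axis and colours for roles. Filled points were called at an adjusted p under 0.05 and open points were not, and LIG1 lies farthest to the right at 0.90 and POLD4 farthest to the left at -0.30.

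The levels themselves covered a wide range. FPKM scales counts by exonic size and library total, so genes may be compared on it, although it uses the summed length of all annotated exons and is low for genes with long rare exons. In si-NC cells PCNA stood highest at 168 ± 9.56 FPKM, followed by RPA2 (40.4 ± 3.39), POLE3 (39.7 ± 1.74) and FEN1 (38.7 ± 1.91), and the differences among these 3 were within their spread. Of the members, 11 were above 20 FPKM, 14 lay between 5 and 20, and 12 were under 5. POLA2 was lowest at 0.683 ± 0.131 FPKM, with 54 counts in its lowest library. Across the 37 genes, the log2 fold change had a Spearman correlation of 0.20 with exonic size and -0.17 with the si-NC level, and across all tested genes these were -0.076 and -0.054. These are descriptions across genes of the same 6 libraries.

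**Figure D2:**
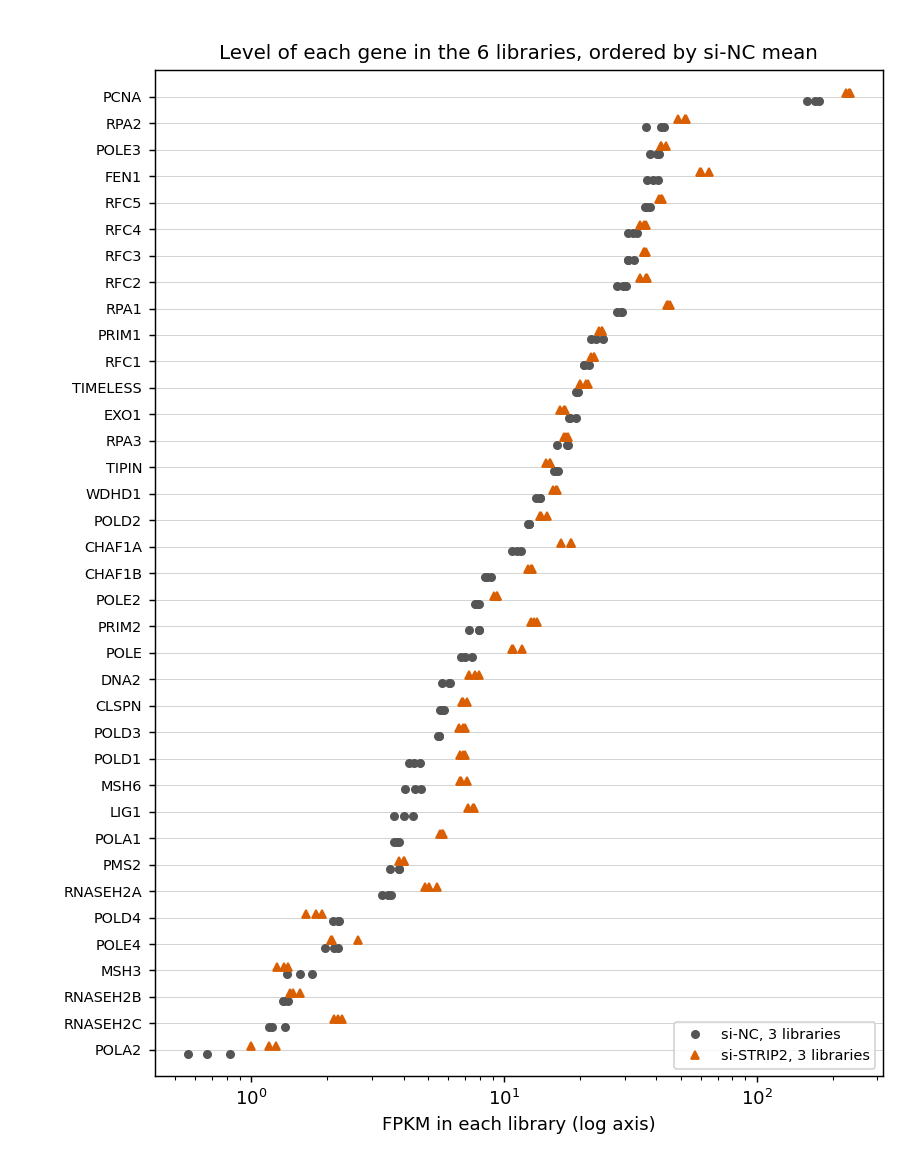
FPKM of each gene (x axis, log scale) in the 3 si-NC libraries (circles) and the 3 si-STRIP2 libraries (triangles), with genes on the y axis ordered by si-NC mean. PCNA lies alone at the top, and the triangles lie to the right of the circles for most genes, while those of POLD4, EXO1, TIPIN and most of MSH3 lie to the left.

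PCNA (ENSG00000132646, chr20:5114953-5126626 in the deposited coordinates, minus strand), the clamp that holds polymerases on DNA and recruits FEN1, LIG1, chromatin assembly factor 1 and mismatch repair proteins, was at 176, 171 and 157 FPKM in the si-NC libraries and 233, 231 and 226 FPKM in the si-STRIP2 libraries. Every si-STRIP2 library lay above every si-NC library. Its level went from 168 ± 9.56 to 230.0 ± 3.79 FPKM (SD, n = 3), which is 137% of the control (log2 fold change 0.45 with standard error 0.042, adjusted p = 4.14e-11 by edgeR). All 5 genes of the loader that opens the clamp were called higher, against 27.8% of all tested genes. RFC2, a small subunit, had the largest value (log2 fold change 0.29 with standard error 0.046, adjusted p = 2.02e-06 by edgeR), and RFC3, RFC5 and RFC4, the other small subunits, had log2 fold changes of 0.19, 0.18 and 0.13 (edgeR adjusted p = 0.000255, 0.000451 and 0.0104). RFC1, the large subunit that is particular to this loader, was at 20.7, 21.7 and 20.8 FPKM in the si-NC libraries and 22.2, 22.7 and 22.6 FPKM in the si-STRIP2 libraries. The groups did not overlap, but the gap was narrow (log2 fold change 0.094 with standard error 0.040, adjusted p = 0.0461 by edgeR), and the call was lost under 9 of 14 alternatives, over which the adjusted p ranged from 0.0315 to 0.147. Among these were the fits without si-NC replicate 1 (0.127), si-NC replicate 3 (0.0819), si-STRIP2 replicate 2 (0.127) and si-STRIP2 replicate 3 (0.147). RFC4 lost its call without si-NC replicate 3 (adjusted p = 0.0587) and without si-STRIP2 replicate 3 (0.0762), over a range of 0.00576 to 0.0762. WSB2, opposite RFC5, held 77.5% as many counts and was lower (log2 fold change -0.25). RFC4 overlaps EIF4A2 on the opposite strand, which held 503% as many counts and was itself higher (log2 fold change 0.40).

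Polymerase alpha-primase starts each Okazaki fragment, and 3 of its 4 genes rose, where 27.8% of all tested genes were called higher. PRIM2, the large primase subunit, had the largest change in the complex and was at 7.98, 7.96 and 7.25 FPKM in the si-NC libraries and 13.1, 13.5 and 12.8 FPKM in the si-STRIP2 libraries. It reached 169.8% of the control (log2 fold change 0.76 with standard error 0.050, adjusted p = 8.43e-15 by edgeR). POLA1, the catalytic polymerase subunit, went from 3.76 ± 0.0850 to 5.66 ± 0.0757 FPKM (SD, n = 3) (log2 fold change 0.59 with standard error 0.045, adjusted p = 3.33e-13 by edgeR), with the pseudogene EEF1B2P3 inside it on the opposite strand at 45.2% of its counts. POLA2, the regulatory subunit, rose on far fewer counts, 54 to 131 per library, and its standard error was 0.15 (log2 fold change 0.73, edgeR adjusted p = 8.79e-05), with a same-strand and an opposite-strand gene at 14.4% and 10.3% of its counts. The catalytic primase PRIM1 was at 23.1, 24.7 and 22.1 FPKM in the si-NC libraries and 23.7, 24.5 and 24.4 FPKM in the si-STRIP2 libraries. Its groups overlapped and it was not called (log2 fold change 0.052 with standard error 0.048, adjusted p = 0.365 by edgeR), with a 95% interval for the log2 fold change of -0.045 to 0.15. PRIM1 shares its strand with NACA, which held 789% as many counts and was higher (log2 fold change 0.36). The part of NACA in the value of PRIM1 was not tested.

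Polymerase delta, which extends the lagging strand, had subunit changes from -0.30 to 0.63 on the log2 scale. POLD1, the catalytic subunit with the proofreading exonuclease, was at 4.19, 4.41 and 4.66 FPKM in the si-NC libraries and 6.99, 6.67 and 6.87 FPKM in the si-STRIP2 libraries. It rose to 155% of the control (log2 fold change 0.63 with standard error 0.066, adjusted p = 6.77e-10 by edgeR). POLD3 and POLD2, accessory subunits that tie the enzyme to PCNA and to POLD1, rose by 0.30 and 0.18 on the log2 scale (edgeR adjusted p = 5.34e-05 and 0.000427), with LIPT2-AS1 on the strand of POLD3 at 24.7% of its counts. POLD4, the small subunit that stabilises the complex and is known to be degraded after DNA damage, was at 2.23, 2.10 and 2.21 FPKM in the si-NC libraries and 1.80, 1.91 and 1.64 FPKM in the si-STRIP2 libraries. All si-STRIP2 libraries lay below all si-NC libraries, and it was called lower by a small margin (log2 fold change -0.30 with standard error 0.13, adjusted p = 0.0487 by edgeR). The call of POLD4 was lost under 8 of 14 alternatives, with adjusted p-values of 0.127, 0.0520 and 0.0780 when si-NC replicates 1, 2 and 3 were left out and of 0.0919 and 0.156 without si-STRIP2 replicates 1 and 3, in a range of 0.0285 to 0.156. It is antisense to RAD9A, a checkpoint clamp gene that held 257% as many counts and was higher (log2 fold change 0.53).

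In polymerase epsilon, the leading strand enzyme, 2 of 4 genes rose, where 27.8% of all tested genes were called higher. POLE was at 6.72, 6.99 and 7.47 FPKM in the si-NC libraries and 11.8, 10.8 and 10.8 FPKM in the si-STRIP2 libraries. The si-STRIP2 libraries all lay above the si-NC libraries, at 158% of the control (log2 fold change 0.65 with standard error 0.045, adjusted p = 2.83e-14 by edgeR). POLE2, the second subunit of the core, went from 7.78 ± 0.167 to 9.27 ± 0.153 FPKM (SD, n = 3) (log2 fold change 0.25 with standard error 0.067, adjusted p = 0.00204 by edgeR). The histone-fold subunits POLE3 and POLE4, which also bind chromatin, were not called. POLE3 was at 41.0, 40.4 and 37.7 FPKM in the si-NC libraries and 41.8, 41.8 and 43.5 FPKM in the si-STRIP2 libraries. Its groups did not overlap (log2 fold change 0.091 with standard error 0.044, adjusted p = 0.0762 by edgeR), the 95% interval of its log2 fold change was 0.0023 to 0.18, and without si-NC replicate 1 the adjusted p was 0.0421, the lowest of a range up to 0.309 over 14 alternatives. POLE4 was at 2.12, 2.2 and 1.95 FPKM in the si-NC libraries and 2.64, 2.06 and 2.09 FPKM in the si-STRIP2 libraries, so that the groups overlapped (log2 fold change 0.11 with standard error 0.15, adjusted p = 0.541 by edgeR, 95% interval -0.19 to 0.42).

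Replication protein A is the trimer that covers single-stranded DNA, and 2 of its 3 genes rose, against 27.8% of all tested genes. RPA1, the large subunit with most of the DNA-binding surface, was at 28.9, 29.3 and 28.1 FPKM in the si-NC libraries and 43.9, 45.4 and 44.6 FPKM in the si-STRIP2 libraries. It rose to 155% of the control (log2 fold change 0.63 with standard error 0.040, adjusted p = 2.98e-15 by edgeR). RPA2, the middle subunit and a target of checkpoint kinases, went from 40.4 ± 3.39 to 51.0 ± 1.96 FPKM (SD, n = 3) (log2 fold change 0.33 with standard error 0.050, adjusted p = 9.17e-07 by edgeR). RPA3, the smallest subunit, was at 17.7, 17.9 and 16.2 FPKM in the si-NC libraries and 17.2, 17.9 and 17.5 FPKM in the si-STRIP2 libraries. The groups overlapped and the log2 fold change was 0.021 (edgeR adjusted p = 0.750, 95% interval -0.081 to 0.12). UMAD1, on the opposite strand of RPA3, held 39.1% as many counts and was lower (log2 fold change -0.35).

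**Figure D3:**
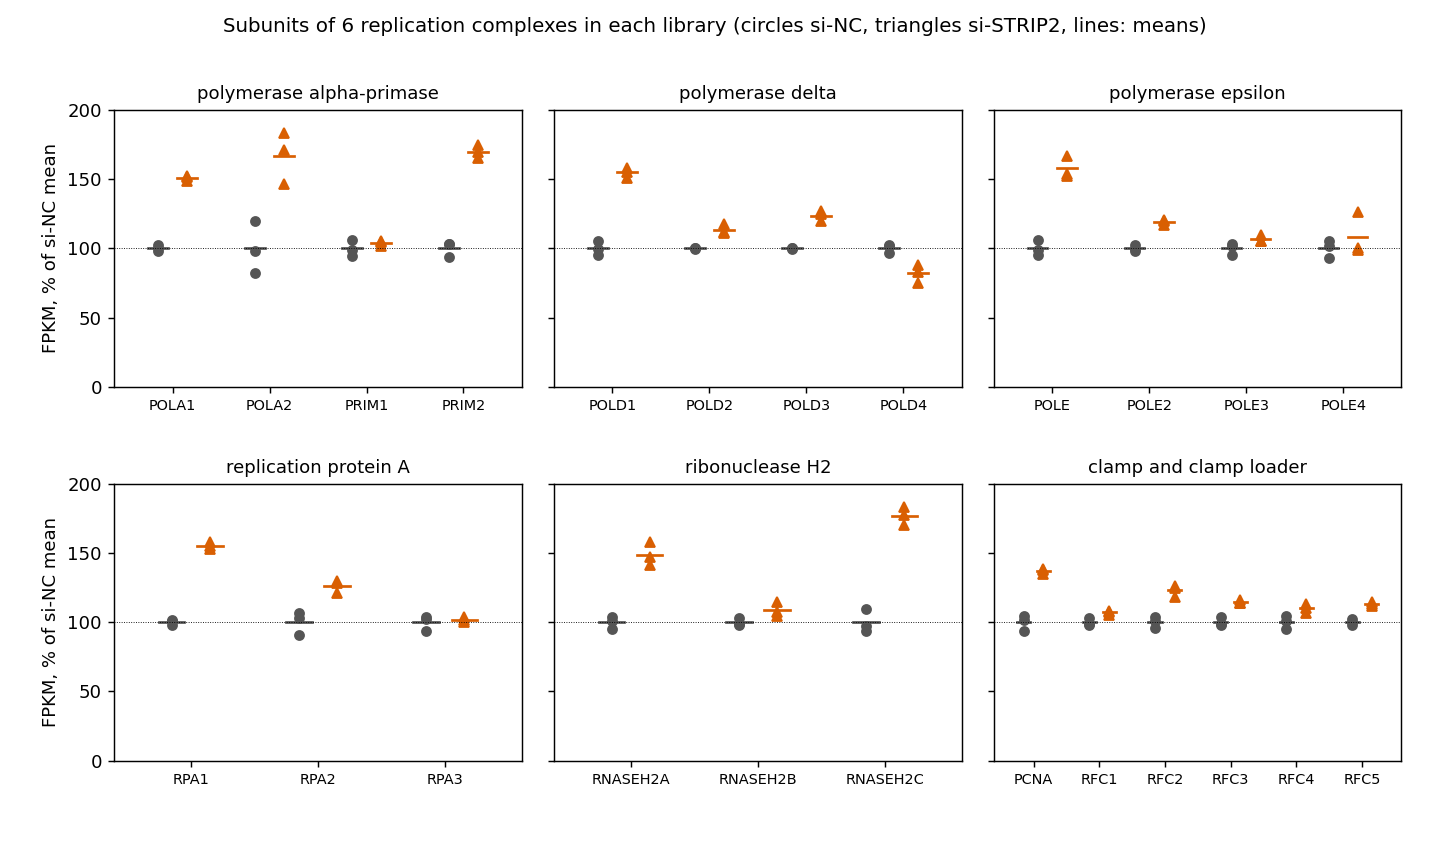
FPKM of each subunit as a percent of its si-NC mean (y axis, from 0) in every library, for 6 complexes, with circles for si-NC, triangles for si-STRIP2 and short lines for the means of 3 libraries. The means of POLA1, PRIM2, POLD1, POLE, RPA1 and RNASEH2C lie at 151%, 169.8%, 155%, 158%, 155% and 177%, while those of PRIM1, POLE3 and RPA3 lie at 104%, 107% and 102% and that of POLD4 at 81.8%.

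The enzymes that mature Okazaki fragments included the largest rise of the set. LIG1 (ENSG00000105486, chr19:48115445-48170603, minus strand), the ligase that seals the fragments, was at 3.66, 4.00 and 4.36 FPKM in the si-NC libraries and 7.60, 7.54 and 7.21 FPKM in the si-STRIP2 libraries. Its lowest si-STRIP2 library was above its highest si-NC library by more than the range within either group, and the mean reached 186% of the control (log2 fold change 0.90 with standard error 0.052, adjusted p = 3.00e-16 by edgeR). Only 356 of the 15687 tested genes had a larger log2 fold change. FEN1, the flap endonuclease that cuts displaced primer ends, was at 38.9, 40.5 and 36.7 FPKM in the si-NC libraries and 59.9, 64.7 and 59.7 FPKM in the si-STRIP2 libraries. It too rose (log2 fold change 0.66 with standard error 0.045, adjusted p = 2.03e-14 by edgeR), with FADS2 on the same strand at 12.1% of its counts and lower (log2 fold change -0.26). DNA2, a nuclease and helicase for long flaps, rose from 5.96 ± 0.225 to 7.63 ± 0.363 FPKM (SD, n = 3) (log2 fold change 0.35 with standard error 0.062, adjusted p = 1.09e-05 by edgeR).

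Ribonuclease H2 removes ribonucleotides from DNA, and 2 of its 3 genes rose, against 27.8% of all tested genes. The catalytic RNASEH2A went from 3.45 ± 0.153 to 5.12 ± 0.295 FPKM (SD, n = 3) (log2 fold change 0.56 with standard error 0.11, adjusted p = 3.36e-05 by edgeR), and RNASEH2C from 1.25 ± 0.10 to 2.2 ± 0.0802 FPKM (SD, n = 3) (log2 fold change 0.82 with standard error 0.11, adjusted p = 1.15e-07 by edgeR). RNASEH2B, whose protein carries the PCNA-binding motif of the complex, was at 1.33, 1.40 and 1.34 FPKM in the si-NC libraries and 1.46, 1.42 and 1.55 FPKM in the si-STRIP2 libraries. Its libraries did not overlap, yet it was not called (log2 fold change 0.12 with standard error 0.058, adjusted p = 0.0771 by edgeR, 95% interval 0.0027 to 0.24). HOOK2, opposite RNASEH2A, held 484% as many counts at a log2 fold change of 0.15. KAT5, opposite RNASEH2C, held 287% and was higher by 0.49. Because the sources used here do not give whether counting used the strand, the part of these neighbours in the changes was not tested.

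Of the 4 mismatch repair genes, 1 rose, 1 fell and 2 were not called, where 27.8% of all tested genes were called higher and 27.0% lower. MSH6, the MutS subunit for single mispairs, was at 4.05, 4.70 and 4.45 FPKM in the si-NC libraries and 6.77, 7.15 and 6.69 FPKM in the si-STRIP2 libraries. All si-STRIP2 libraries were higher, at 156% of the control (log2 fold change 0.64 with standard error 0.047, adjusted p = 1.11e-13 by edgeR). FBXO11, which overlaps it on the opposite strand with 105% as many counts, was lower (log2 fold change -0.30). MSH3, the MutS subunit for larger loops, was at 1.56, 1.38 and 1.74 FPKM in the si-NC libraries and 1.40, 1.26 and 1.34 FPKM in the si-STRIP2 libraries. Its groups overlapped by 1 si-NC library, replicate 2, and it was not called (log2 fold change -0.23 with standard error 0.12, adjusted p = 0.0969 by edgeR, 95% interval -0.47 to 0.0090). Without that library MSH3 was called lower (0.0351), and over its 14 alternatives the adjusted p ranged from 0.0351 to 0.309.

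EXO1, the exonuclease that digests the mismatched strand, was at 18.3, 19.2 and 18.1 FPKM in the si-NC libraries and 17.5, 16.7 and 17.2 FPKM in the si-STRIP2 libraries. It was lower in every si-STRIP2 library by a small amount, 92.3% of the control (log2 fold change -0.12 with standard error 0.045, adjusted p = 0.0257 by edgeR). Its call was lost under 5 of 14 alternatives, among them DESeq2 (adjusted p = 0.0516), no filter on low counts (0.0746) and leaving out replicate 2 of si-NC (0.0864) or of si-STRIP2 (0.113), in a range of 0.00729 to 0.113. PMS2, the endonuclease subunit of MutL, was at 3.55, 3.84 and 3.85 FPKM in the si-NC libraries and 3.82, 4.01 and 4.02 FPKM in the si-STRIP2 libraries. Its groups overlapped (log2 fold change 0.075 with standard error 0.054, adjusted p = 0.248 by edgeR, 95% interval -0.036 to 0.19), and the value is uncertain, since 15 annotated copies of PMS2 held 101% as many counts in all. The copies with the most counts were PMS2CL and PMS2P1, at log2 fold changes of -0.11 and 0.20 (edgeR adjusted p = 0.247 and 0.0427).

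Chromatin assembly factor 1 places new histones behind the fork through PCNA. CHAF1A, its large subunit, was at 11.6, 11.2 and 10.7 FPKM in the si-NC libraries and 16.8, 18.4 and 18.4 FPKM in the si-STRIP2 libraries. CHAF1B, its middle subunit, was at 8.57, 8.86 and 8.38 FPKM in the si-NC libraries and 12.5, 12.8 and 12.95 FPKM in the si-STRIP2 libraries. The groups were apart for both, at 159% and 148% of the control (log2 fold changes 0.67 and 0.56, standard errors 0.051 and 0.049, edgeR adjusted p = 3.92e-13 and 1.02e-11). UBXN6, which overlaps CHAF1A on the opposite strand, held 60.5% as many counts. MORC3, which overlaps CHAF1B on the same strand, held 111% as many. Neither UBXN6 nor MORC3 was called (log2 fold changes -0.062 and -0.051). The part of these genes in the values of CHAF1A and CHAF1B was not tested.

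The fork protection genes had log2 fold changes from -0.095 to 0.29. CLSPN, the mediator that passes the ATR signal to CHEK1, was at 5.55, 5.78 and 5.70 FPKM in the si-NC libraries and 6.82, 7.13 and 6.87 FPKM in the si-STRIP2 libraries. It rose with no overlap between groups (log2 fold change 0.29 with standard error 0.047, adjusted p = 3.56e-06 by edgeR). WDHD1, which links the helicase to polymerase alpha, went from 13.7 ± 0.276 to 16.0 ± 0.314 FPKM (SD, n = 3) (log2 fold change 0.22 with standard error 0.043, adjusted p = 5.16e-05 by edgeR). TIMELESS and TIPIN form one complex that keeps helicase and polymerases coupled, and neither was called. TIMELESS was at 19.5, 19.7 and 19.3 FPKM in the si-NC libraries and 19.99, 21.5 and 21.1 FPKM in the si-STRIP2 libraries (log2 fold change 0.095 with standard error 0.042, adjusted p = 0.0559 by edgeR). TIPIN was at 15.8, 16.4 and 15.8 FPKM in the si-NC libraries and 14.6, 15.2 and 15.2 FPKM in the si-STRIP2 libraries (log2 fold change -0.095 with standard error 0.053, adjusted p = 0.130 by edgeR). The groups did not overlap for either gene, with the si-STRIP2 libraries above for TIMELESS and below for TIPIN. TIMELESS was called higher with upper-quartile factors (adjusted p = 0.0450) and without si-STRIP2 replicate 1 (0.0161), within a range of 0.0161 to 0.216.

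The ratio of 2 partners was set out library by library for 8 pairs. The pairs were chosen with the changes of their members known, and most set a member with a large rise against one with little change or a fall. The ratios therefore restate those values and are a description. An exact 2-sided permutation test was run on each pair. Its smallest possible p with 3 libraries per group was 0.1, so no conclusion is drawn from it. MSH6 over MSH3 was 2.60, 3.41 and 2.56 in si-NC and 4.84, 5.67 and 4.99 in si-STRIP2, a change that moved the mean from 2.85 ± 0.479 to 5.17 ± 0.446 (SD, n = 3). POLD1 over POLD4 was 1.88, 2.10 and 2.11 in si-NC and 3.88, 3.49 and 4.19 in si-STRIP2. RPA1 over RPA3 was 1.64, 1.64 and 1.74 in si-NC and 2.55, 2.53 and 2.55 in si-STRIP2. In these 3 pairs the si-STRIP2 ratios all lay above the si-NC ratios, as the choice of members fixes. POLE over POLE3 averaged 0.179 ± 0.0177 in control cells against 0.263 ± 0.0169 after si-STRIP2 (SD, n = 3), and RNASEH2A over RNASEH2B 2.54 ± 0.131 in control cells against 3.47 ± 0.305 after si-STRIP2 (SD, n = 3). TIMELESS over TIPIN averaged 1.22 ± 0.0163 in control cells against 1.39 ± 0.0229 after si-STRIP2 (SD, n = 3), the smallest of the 6 shifts without overlap. The groups overlapped for the other 2 pairs. RFC1 over RFC4 averaged 0.651 ± 0.0203 in control cells against 0.633 ± 0.0115 after si-STRIP2 (SD, n = 3). CHAF1A over CHAF1B averaged 1.30 ± 0.0480 in control cells against 1.40 ± 0.0463 after si-STRIP2 (SD, n = 3).

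**Figure D4:**
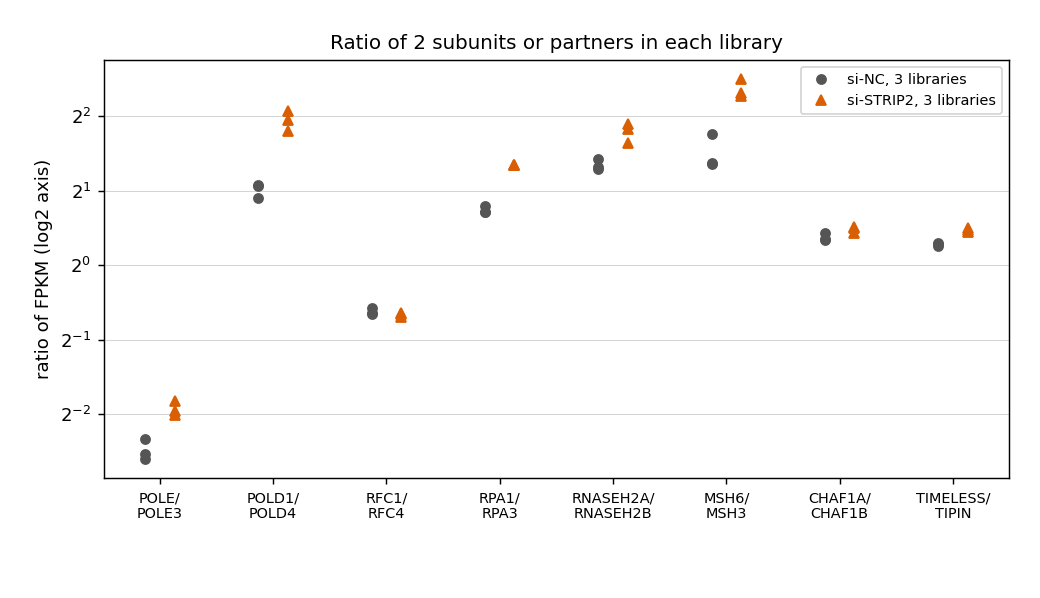
Ratio of the FPKM of 2 subunits or partners (y axis, log2 scale) in each si-NC library (circles) and each si-STRIP2 library (triangles) for 8 pairs. The groups are separate for 6 pairs and overlap for RFC1/RFC4 and CHAF1A/CHAF1B.

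Overlapping genes touched several members, so the counts were split by them. Genes that overlap a member held more counts than the member itself for 8 of the 37, of which 5 were called higher, 1 lower and 2 not called (median log2 fold change 0.35). Among the other 29 members, 21 were higher, 1 lower and 7 not called (median 0.29). With the limit at 10% of a member's counts, the 16 members above it had 11 higher, 1 lower and 4 not called (median 0.43), and the 21 others 15, 1 and 5 (median 0.25). The part of the overlapping genes in this gap was not tested. Across all tested genes 27.8% were called higher and 27.0% lower.

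A further 45 genes that work at or behind the fork were listed by role and all were tested. Of these, 26 rose, 10 fell and 9 were not called, with a median log2 fold change of 0.19, beside the 27.8% higher and 27.0% lower of all tested genes. Of the alternative clamp loaders and unloader, 3 rose and 1 fell. CHTF18, the large subunit of the cohesion clamp loader, rose by 0.88 and its partner CHTF8 fell by 0.65 on the log2 scale (edgeR adjusted p = 9.00e-11 and 1.54e-06). A group of 4 genes held PCLAF, DNMT1 and UHRF1, of clamp-bound maintenance and replication-coupled methylation, and the fork factor DONSON. The first 3 rose, led by the PCNA-associated factor PCLAF (log2 fold change 0.72 with standard error 0.047, adjusted p = 7.59e-15 by edgeR). DONSON fell (log2 fold change -0.30 with standard error 0.053, adjusted p = 9.71e-06 by edgeR). Topoisomerases and accessory helicases had 3 rises of 4, with TOP1 at 0.49 (edgeR adjusted p = 3.91e-12). Of 6 histone-handling genes 5 rose. The H3-H4 chaperone NASP rose by 0.77 and the histone chaperone ASF1A fell by 0.39 (edgeR adjusted p = 9.88e-18 and 1.04e-07).

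Of 9 fork checkpoint genes, 3 rose, 2 fell and 4 were not called, with the kinase ATR at 0.30 and the clamp loader subunit RAD17 at -0.13 (edgeR adjusted p = 2.84e-06 and 0.00960). Of 12 genes of fork remodelling and lesion bypass, 5 rose, 4 fell and 3 were not called, where 27.8% of all tested genes were called higher and 27.0% lower. POLH, the polymerase that copies past ultraviolet lesions, rose by 0.72 and REV3L, the catalytic subunit of polymerase zeta, fell by 0.30 on the log2 scale (edgeR adjusted p = 1.62e-11 and 1.61e-06). Of 3 further mismatch repair factors, 2 rose and 1 was not called, with the MutL-family gene PMS1 at 0.27 (edgeR adjusted p = 3.01e-06). For cohesion at the fork, the acetyltransferase ESCO2 rose (log2 fold change 0.52 with standard error 0.050, adjusted p = 9.15e-11 by edgeR), the helicase DDX11 rose by 0.32 and the paralog ESCO1 fell, at -0.13 (edgeR adjusted p = 7.71e-06 and 0.0143).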

How the data were processed

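Counts and FPKM of 6 HCT116 libraries were used. Per the labels' protocols, poly(A) RNA was selected and directional libraries were made. The submitters' processing notes list HISAT2 2.2.1, HTSeq 0.6.1, cutadapt 1.9.1 and build GRCh38.p13, and the annotation release and whether counting used the strand are not given in the sources used here. The authors deposited raw counts per gene and FPKM, which differed by at most 0.005 from count, exonic size and column total.

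The counts were tested with edgeR 4.0.16 (R 4.3.3): filterByExpr (minimum count 10) kept 15687 genes with 99.8% of counts, TMM scaling, a quasi-likelihood F test with group as the only term, 2-sided, and Benjamini-Hochberg adjustment over all tested genes, with calls at an adjusted p under 0.05. Standard errors are the absolute log2 fold change over the square root of F, and 95% intervals use the moderated degrees of freedom. DESeq2 1.42.0 and limma 3.58.1 on log2(FPKM + 1) or log2(FPKM + 0.1) were alternatives. The lowest count of a member in a library was 54, so counting error limits POLA2 most. The edgeR script was also run on simulated counts with the same dispersion for every gene. That setting differs from the real data, so the run does not measure the error of these calls.

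The members, roles, lists and tests were chosen with earlier results of these data known. Values per library are given for PCNA, for the highest and lowest log2 fold change of each role, and for members called lower or not called. They are also given for FEN1, which that rule does not cover. Of the further genes, the smallest adjusted p per role and direction is named (DDX11 was added after its values were seen). Overlapping genes are named where they held over 10% of a member's counts, except 1 that is not reported here. Protein motifs were not analysed here.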

Additional observations from a re-analysis of the deposited data

How the results depend on the processing

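The count of members called higher, 26 in the main test, was 25 with median-ratio factors, with DESeq2, with no filter, with at least 1 FPKM in 3 libraries and with the replicate block, 27 with upper-quartile factors, 26 with either limma fit, and 24 at an adjusted p under 0.01. It ranged from 24 to 27 when each library was left out. All genes called higher were 4359 of 15687 in the main test, 4218 with median-ratio and 4317 with upper-quartile factors. They were 3556 with DESeq2, 4196 with the replicate block, 3998 and 4012 with the limma fits, and 3455 at an adjusted p under 0.01. With no filter they were 4213 of 32799, and with at least 1 FPKM in 3 libraries 3635 of 12329. With each library left out they were 3866 to 4244, with 15948 to 16055 genes tested. The count of members called lower was less stable. It was 2 in the main test, 0 with DESeq2, with no filter, with the replicate block and at an adjusted p under 0.01, and 1 when any single library was left out. That 1 gene was not always the same. It was MSH3 without si-NC replicate 2, POLD4 without si-STRIP2 replicate 2, and EXO1 when any other library was left out. All genes called lower were 4240 in the main test, 3682 with DESeq2, 4152 with no filter and 4097 with the replicate block. They were 3436 at an adjusted p under 0.01 and 3824 to 4250 with each library left out. Leaving out libraries gave 7690 to 8494 calls over all genes and a median log2 fold change of the members from 0.26 to 0.29. Under DESeq2 all genes called were 7238. Of the values of single genes, 24 lost a call, 4 gained one and 2 changed sign, and 502 did neither. The sign changes were those of POLE4 without si-STRIP2 replicate 1 (-0.0051, where leaving out others gave up to 0.18) and of RPA3 without si-NC replicate 3 (-0.024, against up to 0.044), neither called in any fit. The cause was not tested.

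The equal replicate numbers of the groups were checked for pairing. Deviations from the group means correlated at -0.099, -0.0078 and -0.11 between libraries of number 1, 2 and 3. Between libraries of unequal number they correlated at -0.083 to 0.16. The numbers were not taken to pair the libraries, but with 3 libraries per group this check can miss a pairing. With the replicate block, 25 members were called, all higher, and 8293 of all genes, and RFC1, POLD4 and EXO1 were no longer called (adjusted p = 0.0916, 0.0683 and 0.0508).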
